A study of Mus musculus with 20 samples.

Results

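The genes of the IL-6 receptor and STAT3 signalling path described here are Il6, Il6ra, Il6st, Osmr, Stat3, Socs3, Cebpb, Cebpd, Bcl3 and Junb, 10 of the 19505 genes named on the array. Each was found by its symbol, as a probe set whose annotation gives exactly 1 symbol equal to the gene's, and each had 1 such probe set. RNA was measured on 20 mouse Clariom S arrays, 2 for each of 10 groups, in a series on erythroblasts, the nucleated precursors of red cells. The values are log2 signals, so a difference of 1 is a doubling, and n = 2 arrays a group throughout.

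The 4 cultured groups, D1-IL6 and D2-IL6 with their controls D1-Control and D2-Control, came from healthy female wild-type C57BL/6 mice. Marrow progenitors without mature lineage markers were grown in serum medium with erythropoietin, insulin and transferrin. Recombinant mouse IL-6, at 100 ng/mL, was present throughout culture in the IL6 groups. D1 and D2 name the collection points, which the labels define no further. The other 6 groups were erythroblasts of mice aged 1 year on the C57BL/6 background. They were double wild type (DWT) or carried the mDia1 and miR-146a double knockout (DKO), each at 3 labelled stages. By the series' naming, stage I stands for proerythroblasts, II+III for cells that are basophilic or polychromatic, and IV for orthochromatic cells. Marker signals, given below, bear these names out only in part. mDia1, encoded by Diaph1, is a formin that builds actin filaments, and miR-146a is a microRNA that represses inflammatory signalling. Replicate 1 of each DWT group was male and replicate 2 female, whereas the DKO arrays were all from females, so genotype and sex are in part confounded. The deletions are labelled as genotype only, with no promoter or Cre named, and how stages were isolated is not given in the sources used here. The series describes 2 mice for each genotype and 2 for the cultures.

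IL-6 binds its own receptor subunit, encoded by Il6ra, and the pair then engages gp130, the signalling subunit encoded by Il6st, which related cytokine receptors such as that encoded by Osmr also use. JAK kinases bound to gp130 phosphorylate STAT3, which enters the nucleus and raises its targets, among them Socs3, whose product binds gp130 and shuts the signal off. Cebpb, Cebpd, Bcl3 and Junb encode transcription regulators that are classic early or acute-phase targets of this path. In marrow, IL-6 is known as an inflammatory cytokine that acts on myeloid progenitors, and inflammation is known to restrain red cell production. The path is switched by phosphorylation, which an RNA array does not measure.

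RefSeq held a promoter window for 9 of the 10 genes on GRCm38.p6, with 250 bases before and 50 after the annotated start. Of these, 4 are shown: Il6ra, Il6st and Stat3, whose signals fell together at the last labelled DWT stage, and Socs3, the classic feedback target, whose window alone among the 9 held a STAT site. They lie at chr3:89913147-89913446 on the minus strand (Il6ra), chr13:112463820-112464119 on the plus strand (Il6st), chr11:100939491-100939790 on the minus strand (Stat3) and chr11:117969317-117969616 on the minus strand (Socs3). Each is written along the gene's own strand, and capitals mark the motif matches described next.
Il6ra: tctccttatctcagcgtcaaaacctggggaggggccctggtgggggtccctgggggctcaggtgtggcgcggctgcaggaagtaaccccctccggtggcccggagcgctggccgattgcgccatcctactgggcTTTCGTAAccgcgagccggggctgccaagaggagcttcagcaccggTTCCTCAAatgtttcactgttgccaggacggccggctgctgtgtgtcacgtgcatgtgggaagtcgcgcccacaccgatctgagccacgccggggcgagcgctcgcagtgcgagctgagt
Il6st: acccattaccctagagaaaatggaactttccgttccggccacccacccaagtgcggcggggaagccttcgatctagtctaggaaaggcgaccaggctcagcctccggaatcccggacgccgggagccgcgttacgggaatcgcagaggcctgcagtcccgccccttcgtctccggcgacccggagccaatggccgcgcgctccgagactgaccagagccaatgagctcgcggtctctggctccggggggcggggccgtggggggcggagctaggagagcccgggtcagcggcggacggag
Stat3: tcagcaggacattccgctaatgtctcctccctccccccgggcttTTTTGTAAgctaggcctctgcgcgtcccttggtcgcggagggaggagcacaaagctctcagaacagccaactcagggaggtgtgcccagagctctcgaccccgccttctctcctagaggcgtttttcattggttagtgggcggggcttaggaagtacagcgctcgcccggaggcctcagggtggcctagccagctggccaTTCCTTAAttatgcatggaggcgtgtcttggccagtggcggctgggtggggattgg
Socs3: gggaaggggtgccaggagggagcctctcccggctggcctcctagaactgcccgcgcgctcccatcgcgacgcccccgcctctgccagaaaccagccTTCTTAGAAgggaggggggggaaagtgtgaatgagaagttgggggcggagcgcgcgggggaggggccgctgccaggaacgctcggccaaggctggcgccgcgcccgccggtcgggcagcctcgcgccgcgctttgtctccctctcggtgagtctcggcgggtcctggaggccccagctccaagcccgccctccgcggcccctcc

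The motifs searched, on both strands, were TTCNNNGAA for STAT factors, TGANTCA for AP-1 and TTNNGNAA for C/EBP factors. They occurred in 8.30%, 7.81% and 40.7% of 32851 mouse promoter windows of the same length. Socs3 held the STAT motif as TTCTTAGAA, starting at position -154 from the gene's start. Il6ra held the C/EBP motif at -116 and -70, and Stat3 at -206 and -6. Il6st held none of the 3 motifs in this window. Among the windows not shown, Il6 held an AP-1 match at -249 and a C/EBP match at -128, Osmr held an AP-1 match at position 4, and Cebpb, Bcl3 and Junb held none. A match is a stretch of letters and was not tested for binding.

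Il6ra, Stat3, Junb and in most arrays Il6st read above the background probe sets, while Socs3, Osmr and Cebpb, which include classic feedback and target genes of the path, did not rise above background in any array. In culture the Il6st signal was lower in D2 controls than with IL-6 or at D1, and Junb was higher at D2 than at D1 whether or not IL-6 was present. In vivo the fall from stage II+III to IV was called for Il6ra and Stat3 in both genotypes, for Il6st in DWT and for Cebpd in DKO. Il6st in DKO and Cebpd in DWT were also lower at stage IV but missed the threshold. None of the 10 genes was called for a difference between the genotypes' steps. Each of the stage IV calls ended in some of the fits that left out 1 array. No difference between DKO and DWT was called in any of the 10 genes.

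Each array has 23 background probe sets, and signals below their 95th percentile there, a level of 7.25 to 7.74, are called near background. By this measure Il6ra, Stat3 and Junb were above background in all 20 arrays and Il6st in 17. Il6 and Cebpd were above background in 7 arrays each and Bcl3 in 6. Socs3, Osmr and Cebpb were near background in all 20 arrays, those of the IL-6 cultures included, so nothing can be said of differences in them. The negative control probe sets gave a higher level, 10.82 to 12.70 as their 95th percentile in an array. Above that level were Junb in 17 arrays, Il6ra in 11, Stat3 in 10, Il6st in 8 and the other 6 genes in 0. The Il6st values of D2-IL6 lay under it. In some arrays it exceeded the median of the positive control probe sets, as in D2-IL6 replicate 1 (12.57 against 10.99). Whether this level marks background is therefore not known here.

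**Figure D1:**
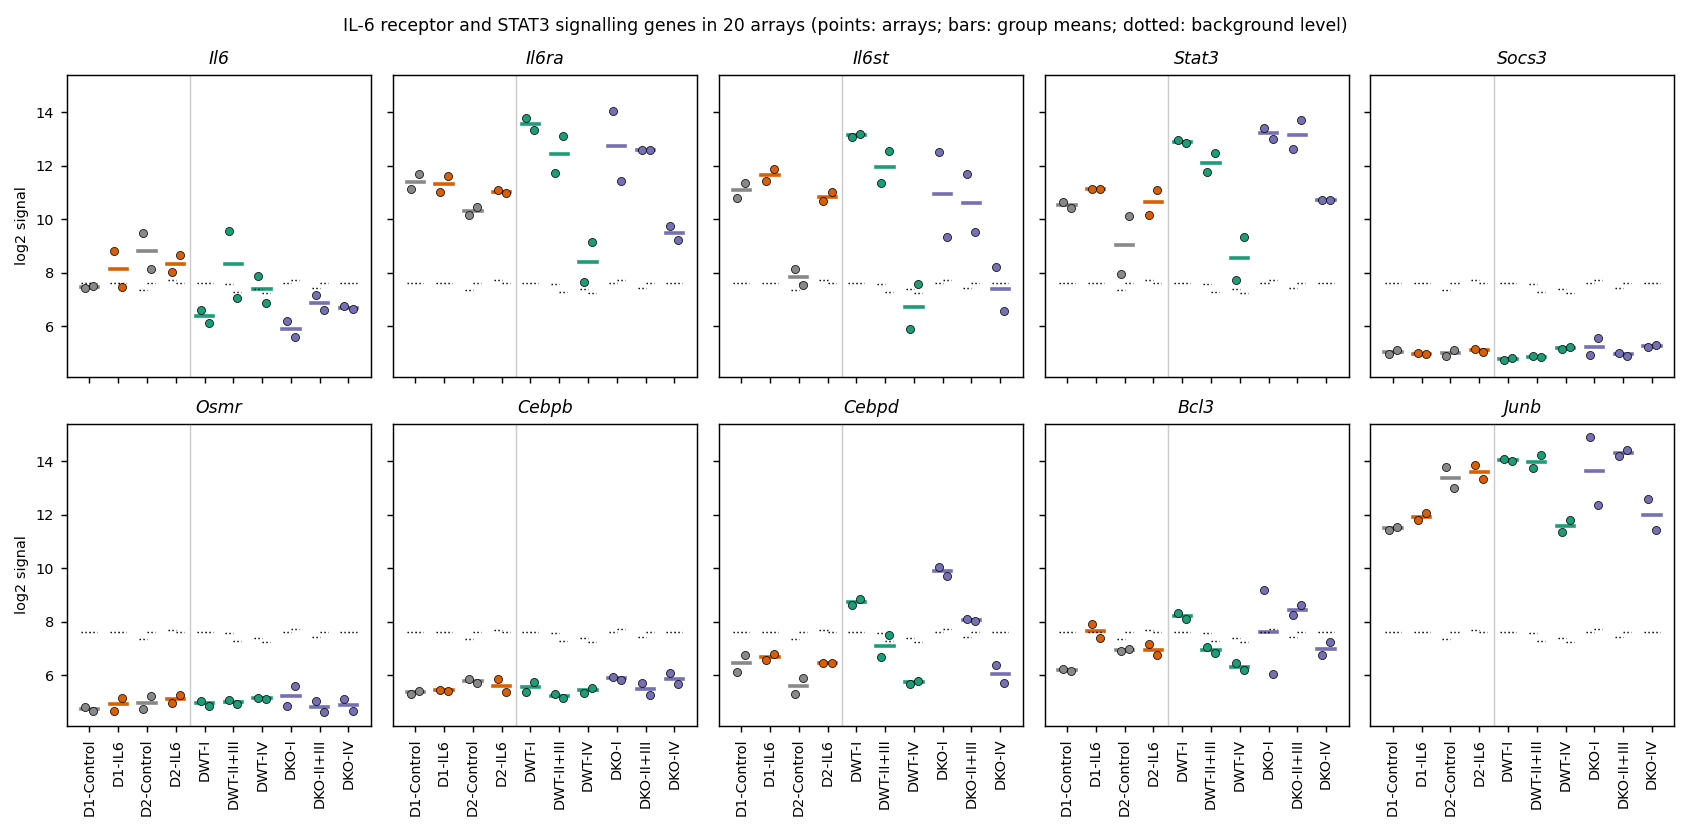
Log2 signal (vertical axis) of the 10 genes in the 10 groups (horizontal axis), with 1 panel a gene. Points are arrays, bars are group means and dotted lines the background level of each array. Il6ra and Stat3 are above the background lines in all 20 arrays, and Socs3, Osmr and Cebpb are below them in all 20.

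Between 34.9% and 43.0% of named probe sets were above background in an array, and partner arrays correlated at 0.9697 to 0.9935 across genes, except for the DKO-I pair at 0.9025. DKO-I replicate 2 stood apart, with a positive-control median of 10.04 against 10.81 to 11.48 in the other arrays, so results for DKO-I are given with and without it. Diaph1, the targeted gene, read 9.29 to 11.49 in the DWT arrays and was near background in all 6 DKO arrays. Whether its probes lie within the deleted part is not known here. A list of 11 measured erythroid genes, Gata1 and Klf1 among them, averaged 14.75 to 15.20 in the cultured arrays and 12.92, 14.49 and 15.74 at the successive DWT stages. In DKO-I it averaged 9.66 and 8.93, with Epor and Sptb near background in both arrays, so the erythroid label is less well borne out there. A list of 10 neutrophil genes led by S100a8 averaged 16.50 and 16.70 in DWT-I and 17.26 and 15.75 in DKO-I, where all 10 were above background. In DWT-I too the neutrophil mean, 16.60, was above the erythroid mean of 12.92, so the proerythroblast label is only in part borne out there. In DKO-II+III the neutrophil list averaged 15.81 against 12.60 for the erythroid list. All 11 erythroid genes were above background in both arrays of DWT-I and of DKO-II+III. In DWT-II+III, DWT-IV and DKO-IV the neutrophil mean was below the erythroid mean. In D2-Control, with 9 of the 10 near background, the neutrophil list averaged 5.90 and 5.86.

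Groups were compared with limma, and a difference was called when its Benjamini-Hochberg adjusted p over the 19572 named probe sets was under 0.05. Calls among the 10 genes are set beside the share of all named probe sets called. IL-6 against control gave 0 of 10 at D1 (0.0511% of all) and 1 of 10 at D2 (3.31% of all). D2 against D1 gave 4 of 10 in control cultures, where 43.2% of all were called, and 1 of 10 in IL-6 cultures, where 33.2% were. DKO against DWT gave 0 of 10 at stage I (0.445% of all), II+III (0.618%) and IV (0.0460%). Stage II+III against I gave 0 of 10 in DWT (0.245%) and in DKO (0.327%). Stage IV against II+III gave 3 of 10 in DWT (5.16%, with 3.57% lower) and 3 of 10 in DKO (7.77%, with 3.66% lower), and the calls among the 10 were all lower. With Benjamini-Hochberg adjustment in limma, the comparisons with no call had 1 or 2 of the 10 genes at an unadjusted p under 0.05. They were Bcl3 at D1 (2.83% of all), Cebpd for DKO at stages I (15.5%) and II+III (9.28%), Stat3 for DKO at stage IV (8.11%), Il6 and Cebpd for DWT II+III against I (7.44%) and Cebpd for DKO II+III against I (10.4%). In vivo, 1 of 10 is thus near the share over all probe sets. Labels do not say that the arrays of a cultured group came from separate mice, and p-values measure the spread between these arrays only. The stage tests took the in vivo arrays as unpaired, though the series describes 2 mice for each genotype.

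**Figure D2:**
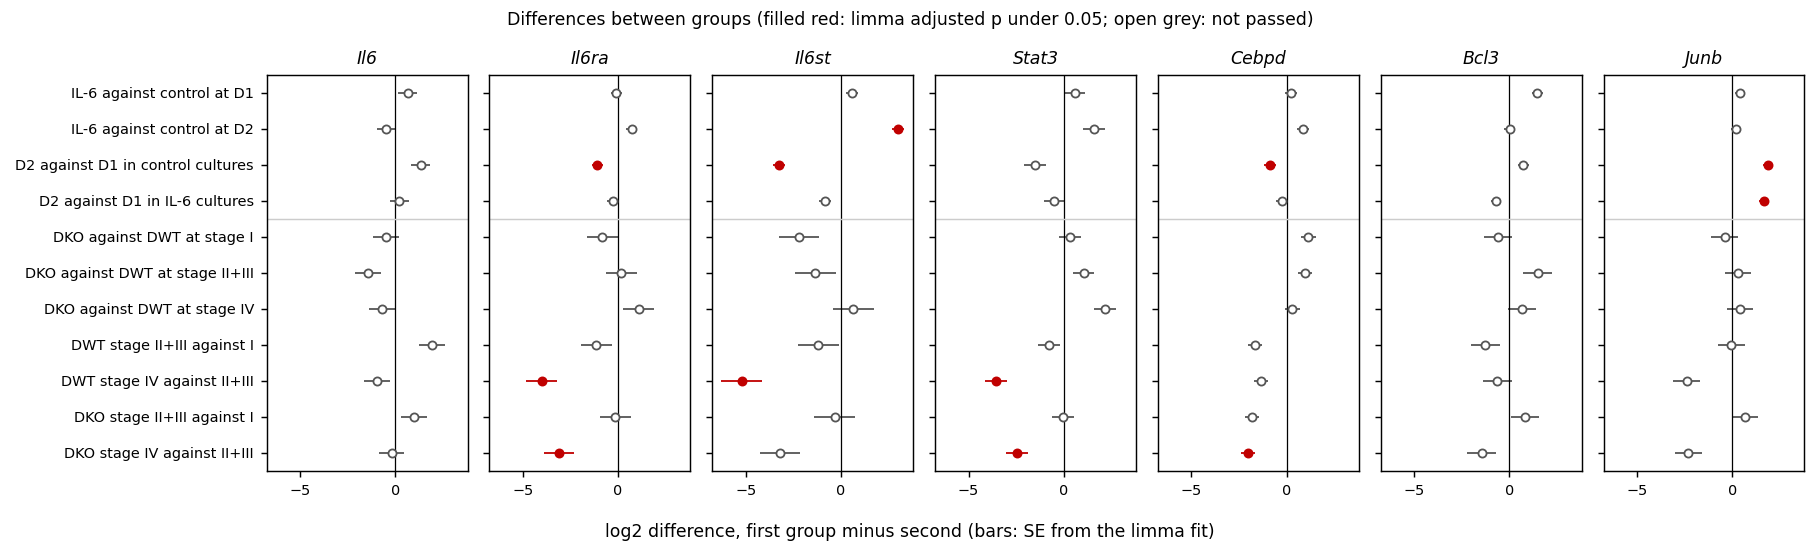
Log2 difference (horizontal axis, first group minus second) of the 7 genes above background in any group, for 11 comparisons of 2 groups. Points are estimates and bars standard errors from the limma fit, with filled red points at an adjusted p under 0.05, and where a group is near background the point is the fitted value and no bound. Il6st has its only red point above 0 for IL-6 against control at D2, and the red points at stage IV lie below 0.

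Il6 encodes the cytokine itself. In D1-Control its signal was 7.44 and 7.51, both near background, and in D1-IL6 8.80 and 7.47. In D2-Control it read 9.49 and 8.13, and in D2-IL6 8.04 and 8.65, the only groups in which both arrays were above background. D2-Control was at least 1.20 above D1-Control, which is near background, and the limma adjusted p of 0.0546 missed the threshold. Addition of IL-6 protein did not go with a called difference in the Il6 transcript at D1 (limma adjusted p = 1) or at D2 (-0.47 ± 0.51 SE, adjusted p = 0.742). The arrays of the IL-6 and control groups overlapped at both points.

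In vivo, Il6 was near background in both arrays of DWT-I (6.62 and 6.12) and of DKO-I (6.19 and 5.61). It was also near background in DKO-II+III, at 7.17 and 6.60, and in DKO-IV, at 6.74 and 6.64. DWT-II+III read 9.57 and 7.07 and DWT-IV 7.88 and 6.87, so 1 array of each, replicate 1 from the male mouse, was above background. The gap of 2.51 between the DWT-II+III arrays was the largest of any Il6 pair. DWT-II+III was at least 0.70 above DWT-I, which was not called (limma adjusted p = 0.435). In the order of group means only DKO-IV and DWT-I, which followed each other, had arrays that did not overlap, and both were near background.

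Il6ra encodes the subunit that binds IL-6. It read 11.14 and 11.67 in D1-Control, 11.02 and 11.63 in D1-IL6, 10.17 and 10.47 in D2-Control, and 11.08 and 10.99 in D2-IL6. D2-Control was thus the lowest cultured group, and its arrays did not overlap those of any other. Il6ra fell from D1 to D2 in control cultures by 1.09 ± 0.28 (limma adjusted p = 0.0105), a 2.12-fold difference. This call ended after quantile normalization, where the difference was -0.49 with an adjusted p of 0.243. It also ended without D1-Control replicate 2 (adjusted p = 0.104) or D2-Control replicate 1 (adjusted p = 0.056). In IL-6 cultures the same step measured -0.29 ± 0.28 (adjusted p = 0.470). At D2 the IL-6 cultures were 0.71 ± 0.28 above the controls, which missed the threshold (limma adjusted p = 0.276).

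In vivo Il6ra was lowest at stage IV. DWT-I read 13.80 and 13.35, DWT-II+III 11.74 and 13.10, and DWT-IV 7.66 and 9.14. DKO-I read 14.04 and 11.43, DKO-II+III 12.58 and 12.60, and DKO-IV 9.73 and 9.23. In both genotypes the stage IV arrays lay below all arrays of the earlier stages. From II+III to IV Il6ra fell by 4.02 ± 0.81 in DWT (limma adjusted p = 0.0238), 16.2-fold, and in DKO the difference was -3.11 ± 0.81 (adjusted p = 0.0431), 8.63-fold. The difference between those steps, 0.91 ± 1.14, was not called (adjusted p = 1). In the order of group means, neighbours overlapped from DWT-I to DWT-II+III and again from D1-Control to D2-IL6, while D2-Control, DKO-IV and DWT-IV each stood apart from the group before it.

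Il6st encodes gp130, the subunit through which the receptor signals, and it gave the only called response to IL-6 among the 10 genes. D1-Control read 10.81 and 11.37 and D1-IL6 11.45 and 11.89. D2-Control read 8.13 and 7.53, the second of these near background, and D2-IL6 10.67 and 11.01. The D2-Control arrays were below the other cultured arrays, which lay between 10.67 and 11.89. At D2 the IL-6 cultures were higher by 3.01 ± 0.31 (limma adjusted p = 0.000228), 8.04-fold, and the call held without each of the 4 arrays in turn. It ended only with all 20 arrays in 1 fit, where the adjusted p was 0.186. At D1 the difference was 0.58 ± 0.31 (adjusted p = 1). The response at D2 exceeded that at D1 by 2.43 ± 0.44 (limma adjusted p = 0.0252, 1.19% of all named probe sets called). That call ended after quantile normalization (2.24, adjusted p = 0.0638) and with all 20 arrays in 1 fit (adjusted p = 1). It also ended without D1-Control replicate 2, D1-IL6 replicate 1, D1-IL6 replicate 2, D2-Control replicate 2 or D2-IL6 replicate 2, with adjusted p of 0.159, 0.191, 0.0788, 0.0773 and 0.0808.

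The other side of this pattern was time in culture. In controls Il6st fell by 3.26 ± 0.31 from D1 to D2 (limma adjusted p = 1.47e-05), 9.57-fold. In IL-6 cultures the step was -0.83 ± 0.31 and missed the threshold (adjusted p = 0.0657). The comparisons share the D2-Control arrays, so they are not separate evidence.

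Monocyte and macrophage markers, like Il6st, were lower in D2-Control than in the other cultured groups. Of 10 such genes on the list 8 were measured, and their mean signal was 10.97 and 11.58 in D1-Control, 11.76 and 12.07 in D1-IL6, 7.45 and 7.34 in D2-Control, and 12.36 and 12.25 in D2-IL6. All 8 rose with IL-6 at D2, and all 8 fell from D1 to D2 in controls. Shares called over all named probe sets were 3.31% and 43.2% in these comparisons. From D1 to D2 with IL-6, 3 of the 8 rose and 1 fell, where 33.2% of all named probe sets were called. Their median difference in that step was 0.46, while Il6st measured -0.83. Mpeg1, Adgre1, Ms4a6d and F13a1 were near background in D2-Control, and none of the 8 was in D2-IL6. Csf1r, the receptor for macrophage colony-stimulating factor, read 7.36 and 7.12 in D2-Control and 13.03 and 12.71 in D2-IL6, a difference of 5.63 ± 0.24 (limma adjusted p = 6.91e-07). Of the neutrophil list 4 of 10 rose with IL-6 at D2, of 5 granulocyte progenitor genes 4 rose (list means of 7.78 and 8.02 without IL-6 against 10.06 and 10.21 with it), and of the erythroid list 1 of 11 fell and 0 rose. The part of these cells in the Il6st difference was not tested, and in bulk RNA fewer cells of a type and less RNA per cell cannot be told apart.

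**Figure D3:**
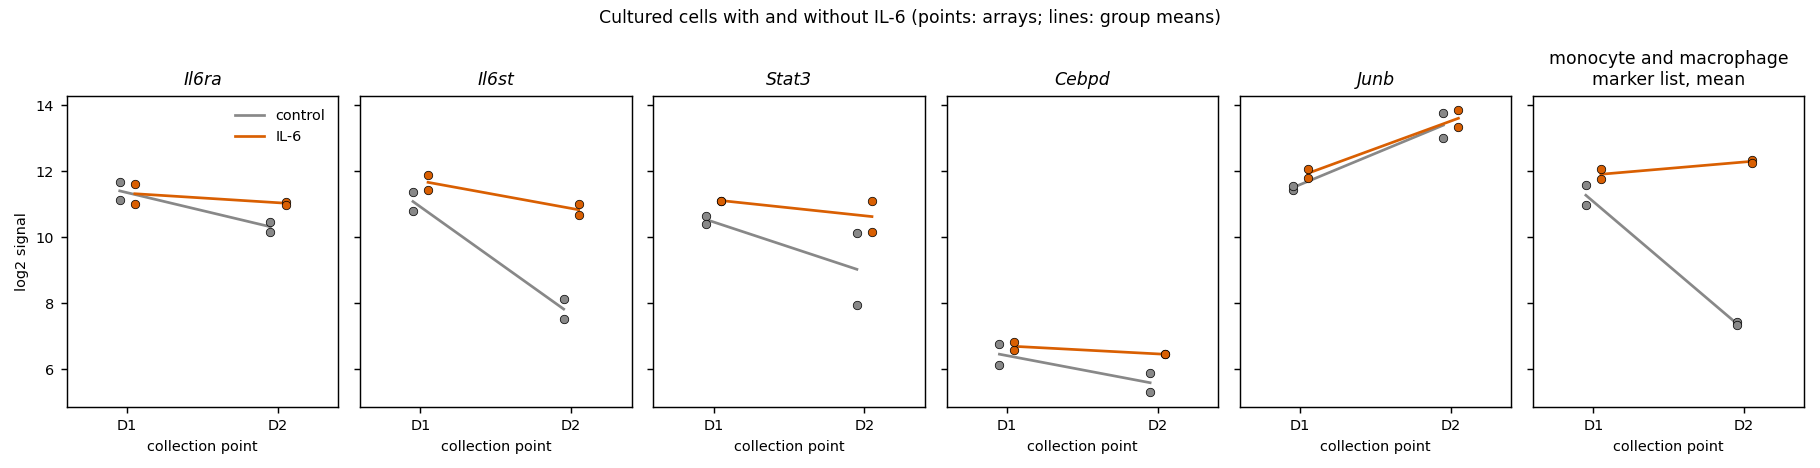
Log2 signal (vertical axis) at the 2 collection points (horizontal axis) in control and IL-6 cultures for 5 of the genes and for the mean of the monocyte and macrophage list. Points are arrays and lines join group means. Il6st and the marker list both drop in the D2 controls, to means of 7.83 and 7.39, and Junb is higher at D2 with and without IL-6.

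In vivo Il6st followed the same order of stages as Il6ra in DWT, with 13.07 and 13.20 at stage I, 11.37 and 12.53 at II+III, and 5.89 and 7.58 at IV. At stage IV replicate 1 was near background and replicate 2 above it. The step from II+III to IV was a fitted fall of 5.22 ± 1.07 (limma adjusted p = 0.0251). The stage IV mean of 6.73 lay under the background level of both its arrays, 7.38 and 7.25, so no fold is given. In DKO the arrays read 12.52 and 9.35 at stage I, 11.68 and 9.52 at II+III, and 8.23 and 6.57 at IV. The DKO pairs were wide apart at every stage, and the last step, -3.20 ± 1.07, missed the threshold (limma adjusted p = 0.102). The difference between the genotypes' steps was 2.01 ± 1.52 (adjusted p = 1).

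No difference between DKO and DWT was called in Il6st at any stage. At stage I the difference was -2.20 ± 1.07 (limma adjusted p = 0.345), and it was -0.62 without DKO-I replicate 2 and -3.79 without DKO-I replicate 1. It was -1.35 ± 1.07 at II+III (adjusted p = 0.822) and 0.66 ± 1.07 at IV (adjusted p = 0.937).

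Osmr encodes the oncostatin M receptor subunit that pairs with gp130. Its signal ranged from 4.63 to 5.60 with a median of 5.01 and was near background in every array.

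Stat3 encodes the transcription factor that carries the gp130 signal. It read 10.66 and 10.42 in D1-Control, 11.11 and 11.12 in D1-IL6, 7.94 and 10.12 in D2-Control, and 10.17 and 11.09 in D2-IL6. The IL-6 arrays lay above the control arrays at both points without overlap. Such separation upward was met in 4 of the 10 genes at each point, against 17.8% of all named probe sets at D1 and 16.3% at D2. At D1 the difference was 0.57 ± 0.57 (limma adjusted p = 1) and at D2 1.60 ± 0.57 (adjusted p = 0.217). The D2 value rested on 1 array: it was 2.69 with an adjusted p of 0.00609 without D2-Control replicate 2, and 0.51 with an adjusted p of 0.600 without D2-Control replicate 1. From D1 to D2 in controls the difference was -1.51 ± 0.57 (limma adjusted p = 0.0540), which was -2.60 and passed without D2-Control replicate 2.

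Stat3 in vivo read higher at the first stages than at stage IV. DWT-I read 12.95 and 12.83, DWT-II+III 11.76 and 12.47, and DWT-IV 7.75 and 9.35. DKO-I read 13.42 and 13.01, DKO-II+III 12.63 and 13.70, and DKO-IV 10.71 and 10.73. Stage IV lay below both earlier stages in each genotype. The step from II+III to IV was a fall of 3.57 ± 0.57 in DWT (limma adjusted p = 0.0128), 11.9-fold, and in DKO the difference was -2.45 ± 0.57 (adjusted p = 0.0282), 5.45-fold. The difference between the steps was 1.13 ± 0.81 (adjusted p = 1).

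At each stage both DKO arrays read above both DWT arrays in Stat3. The differences were 0.32 ± 0.57 at stage I (limma adjusted p = 0.771), 1.05 ± 0.57 at II+III (adjusted p = 0.651) and 2.17 ± 0.57 at IV (adjusted p = 0.307), and none was called. Of all named probe sets 3.93% were likewise higher in DKO without overlap at all 3 stages. Without DKO-I replicate 2 the stage I difference was 0.53, and without DKO-I replicate 1 it was 0.12. With sex as a covariate the 3 differences were -0.04, 0.68 and 1.81, so at stage I the sign turned. Neutrophil markers also read higher in DKO at II+III and IV. Their mean was 15.82 and 15.80 in DKO-II+III against 11.88 and 13.58 in DWT-II+III, and 12.95 and 12.44 in DKO-IV against 7.98 and 10.47 in DWT-IV. At stage I it was 16.51 in DKO-I and 16.60 in DWT-I, with a median difference of 0.02. Of those 10 genes limma called 0 at any stage. At an unadjusted p under 0.05 were 0 at stage I (15.5% of all named probe sets), 8 at II+III (9.28%) and 8 at IV (8.11%). These neutrophil genes had median differences of 3.06 at II+III and 3.70 at IV. Their part in the Stat3 values was not tested.

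**Figure D4:**
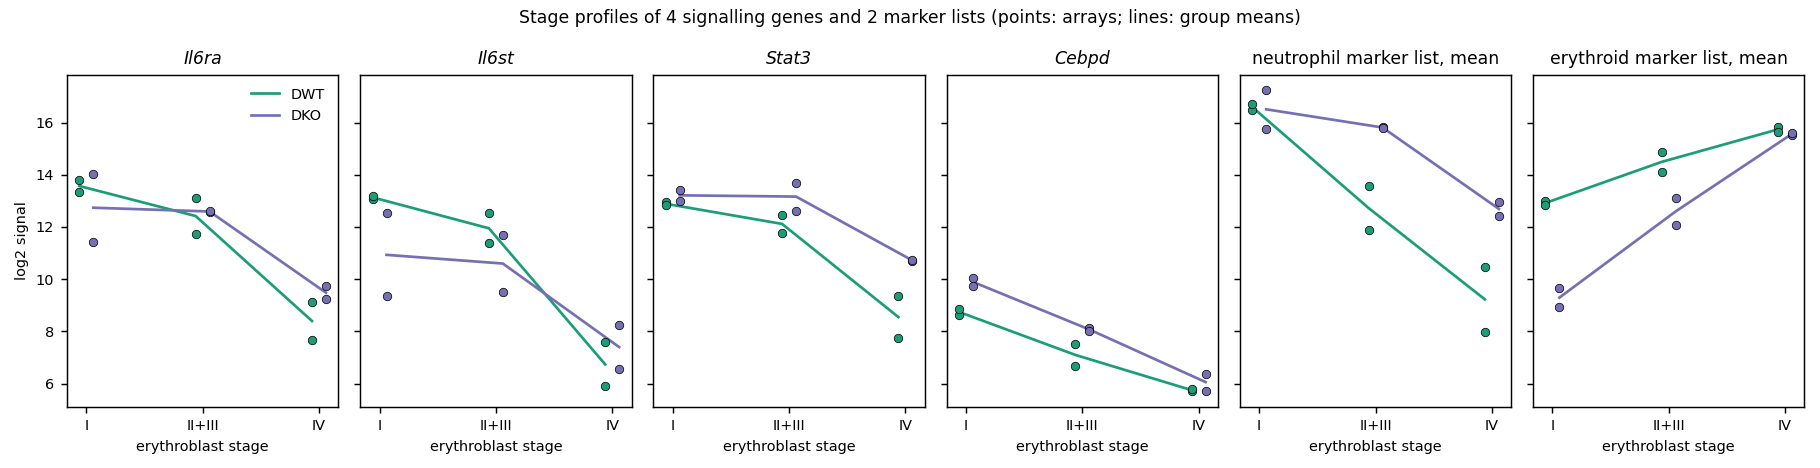
Log2 signal (vertical axis) at stages I, II+III and IV (horizontal axis) of 4 genes and of the means of the neutrophil and erythroid lists, in DWT and DKO. Points are arrays and lines join group means. Stat3 ends at 8.55 in DWT and 10.72 in DKO, the neutrophil list falls along the stages and the erythroid list rises.

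The falls at stage IV also went with marker changes. From II+III to IV, 6 of the 10 neutrophil genes fell in DWT and 6 in DKO, with median differences of -3.62 and -3.02. The share of all named probe sets called lower was 3.57% in DWT and 3.66% in DKO. Of the 8 monocyte and macrophage genes 5 fell in DWT and 2 in DKO. Of the 5 granulocyte progenitor genes 2 fell in DWT and 3 in DKO. Of the 11 erythroid genes 1 rose in DWT and 10 in DKO. In DWT-IV, 5 of the 10 neutrophil genes were above background in both arrays and none was near background in both. The part of these cells in the falls of Il6ra, Il6st and Stat3 was not tested. The DWT falls rested on few arrays. Without DWT-II+III replicate 2 the limma adjusted p was 0.248 for Il6ra, 0.246 for Il6st and 0.175 for Stat3, and without DWT-IV replicate 1 it was 0.193, 0.199 and 0.116. For Il6st it was also 0.0644 without DWT-II+III replicate 1 and 0.0502 without DWT-IV replicate 2. In DKO the Il6ra call ended without any 1 of the 4 arrays, with adjusted p from 0.131 to 0.224. The DKO call of Stat3 ended without DKO-II+III replicate 2 (0.164), DKO-IV replicate 1 (0.127) or DKO-IV replicate 2 (0.147).

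Socs3 encodes the feedback inhibitor that STAT3 induces. It ranged from 4.75 to 5.56 over all arrays. In the IL-6 cultures it read no higher than 5.16. Its probe set was near background in every group, so these arrays give no measure of the feedback arm through this gene.

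Among the target regulators, Cebpb, a C/EBP factor of the acute-phase and emergency myeloid response, was near background throughout, at 5.17 to 6.09 with a median of 5.50. Cebpd, its relative, was near background in all 8 cultured arrays. It read 6.15 and 6.78 in D1-Control, 6.58 and 6.82 in D1-IL6, 5.30 and 5.89 in D2-Control, and 6.46 and 6.46 in D2-IL6. The step from D1 to D2 in controls passed the test (limma adjusted p = 0.0399), but both groups were near background, so no fold is given.

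In vivo Cebpd was highest at stage I, with 8.62 and 8.88 in DWT-I and 10.06 and 9.73 in DKO-I. It read 6.67 and 7.52 in DWT-II+III, 8.12 and 8.02 in DKO-II+III, 5.70 and 5.80 in DWT-IV, and 6.39 and 5.73 in DKO-IV. Both stage IV groups were near background. DKO arrays were above DWT arrays without overlap at I and II+III, by 1.15 ± 0.38 (limma adjusted p = 0.253) and 0.97 ± 0.38 (adjusted p = 0.423), and overlapped them at IV. Without DKO-I replicate 2 the stage I difference was 1.31 (adjusted p = 0.429). Upward separation of this kind held in 26.7% of all named probe sets at stage I and 23.0% at II+III, and for Cebpd neither difference was called.

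From II+III to IV Cebpd fell in DKO (limma adjusted p = 0.0113). Against the background level in DKO-IV it was at least 1.37-fold lower. In DWT, where stage IV was near background, the step was not called (limma adjusted p = 0.0669). The fitted difference between the genotypes' steps, with both stage IV groups near background, was -0.67 ± 0.53 and was not called. From I to II+III the Cebpd step was -1.65 ± 0.38 in DWT (adjusted p = 0.152) and -1.82 ± 0.38 in DKO (adjusted p = 0.0912). The DKO value was -1.99 without DKO-I replicate 2 (adjusted p = 0.105), and it was -1.66 and passed without DKO-I replicate 1 (adjusted p = 0.0205). The DKO call at IV ended without DKO-II+III replicate 1 (adjusted p = 0.0614), DKO-II+III replicate 2 (0.0527) or DKO-IV replicate 2 (0.118).

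Bcl3 encodes an I-kappa-B relative that works in the nucleus with NF-kB. D1-Control read 6.23 and 6.18, D1-IL6 7.92 and 7.42, D2-Control 6.92 and 6.97, and D2-IL6 7.17 and 6.76. Only D1-IL6 replicate 1 was above background. IL-6 and control arrays were separate at D1 and mixed at D2, where both groups were near background. With D1-Control near background, D1-IL6 was at least 0.05 higher. The D1 comparison had the smallest unadjusted p of the 10 genes, 0.000367, but after adjustment in limma it was 0.367. In vivo Bcl3 read 8.33 and 8.12 in DWT-I, 7.08 and 6.85 in DWT-II+III and 6.46 and 6.21 in DWT-IV, so both later DWT groups were near background. DKO-I read 9.19 and 6.06, DKO-II+III 8.25 and 8.64, and DKO-IV 6.76 and 7.24. The DKO-I pair, 3.13 apart, was the widest of all Bcl3 pairs. At II+III DKO was at least 1.02 above DWT, which was not called (limma adjusted p = 0.606).

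Junb encodes an AP-1 subunit induced early by many cytokines. It read 11.45 and 11.56 in D1-Control, 11.79 and 12.08 in D1-IL6, 13.77 and 13.02 in D2-Control, and 13.87 and 13.35 in D2-IL6. All 4 D2 arrays lay above all 4 D1 arrays. From D1 to D2 Junb rose by 1.89 ± 0.27 in controls (limma adjusted p = 0.000217), 3.72-fold, and by 1.67 ± 0.27 in IL-6 cultures (adjusted p = 0.000668), 3.18-fold. IL-6 against control was 0.43 ± 0.27 at D1 (adjusted p = 1) and 0.21 ± 0.27 at D2 (adjusted p = 0.786). At D1 the IL-6 arrays were above the controls without overlap, and at D2 they overlapped.

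In vivo Junb averaged 14.04 ± 0.06 (SD) in DWT-I and read 13.75 and 14.25 in DWT-II+III and 11.37 and 11.82 in DWT-IV. It read 14.89 and 12.39 in DKO-I, 14.19 and 14.42 in DKO-II+III, and 12.58 and 11.44 in DKO-IV. Stage IV lay below II+III in both genotypes, by -2.40 ± 0.69 in DWT (limma adjusted p = 0.0740) and -2.30 ± 0.69 in DKO (adjusted p = 0.0724), and neither passed. The genotypes differed by -0.40 ± 0.69, 0.31 ± 0.69 and 0.41 ± 0.69 at the 3 stages, with no call. Without DKO-I replicate 2 the stage I difference was 0.85, and without DKO-I replicate 1 it was -1.65 and passed (adjusted p = 0.0214).

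The stage I comparison of genotypes thus turned on which DKO-I array was kept. With both, Il6ra differed by -0.83 ± 0.81 (limma adjusted p = 0.587) and Bcl3 by -0.61 ± 0.75 (adjusted p = 0.673). Without replicate 1, 5 of the 10 genes were called: Il6ra (-2.14, adjusted p = 0.0347), Bcl3 (adjusted p = 0.00200), whose remaining DKO-I array was near background, Il6st, Junb and a gene near background in all arrays. In that setting 6066 named probe sets were called in all. Without replicate 2, limma called 0 of the 10, with 2 at an unadjusted p under 0.05, and Il6ra and Bcl3 differed by 0.47 and 0.96. The step from I to II+III in DKO, with 0 of 10 called on all arrays (0.327% of all named probe sets), also depended on the array kept. For Junb it was 1.92 without replicate 1 and -0.59 without replicate 2. The granulocyte progenitor list averaged 16.03 and 11.70 in the DKO-I arrays, against a DWT-I mean of 16.12, and its part in these values was not tested.

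The group means of the 7 genes above background somewhere were compared over the 10 groups, as a description with groups that share tissue and arrays. Il6ra went with Il6st at a Pearson r of 0.899 and with Stat3 at 0.892. Il6, Cebpd and Bcl3 were near background in both arrays of 5, 6 and 6 of the groups, so any r of theirs rests largely on values not above background. Of 9172 genes above background in a group, those most like Stat3 were Psme2b (0.9883), Skap2 (0.9838) and Pip5k1c (0.9826). Those most like Il6ra were Pts (0.9837), Ano6 (0.9676) and Mgrn1 (0.9669), and those most like Il6st were Uggt1 (0.9657), Rabggta (0.9625) and Ccdc91 (0.9575). Mocos (0.9925), Gnaq (0.9880) and Snx6 (0.9858) were most like Cebpd. Itga2b (0.9622), Gata2 (0.9280) and Pitpnc1 (0.9080) were most like Il6, Pvr (0.9138), Pls3 (0.8858) and Atg101 (0.8799) most like Bcl3, and Foxp1 (0.9762), Elmo1 (0.9463) and Bin2 (0.9416) most like Junb.

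The rest of the path was taken from lists of 69 genes, of which 63 were measured: other gp130 cytokines and receptors, JAK kinases and STATs, inhibitors and phosphatases, receptor-shedding proteases, further STAT3 targets, and the C/EBP and AP-1 families. With IL-6 at D1, 1 of the 63 was called, where 0.0511% of all named probe sets were. Il4ra, the interleukin 4 receptor chain and a STAT3 target, read 10.13 and 9.27 in D1-Control and 11.69 and 11.54 in D1-IL6, a rise of 1.91 ± 0.26 (limma adjusted p = 0.0453). At D2 Il4ra was near 15 in all 4 arrays, between 15.21 and 15.68, and the response there was smaller than at D1 by 1.89 (-1.89 ± 0.37, adjusted p = 0.0401).

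With IL-6 at D2, 3 of the 63 rose and 0 fell, where 3.31% of all named probe sets were called. The median difference was -0.03 against -0.07 over all genes. Ptpn6 encodes SHP-1, a phosphatase of blood cells that damps cytokine receptor signals. It read 5.11 and 5.11 in D2-Control, near background, and 9.59 and 8.50 in D2-IL6, so it was at least 1.56 higher on the log2 scale (limma adjusted p = 0.000610). Batf, an AP-1 partner, read 6.90 and 7.29 against 8.65 and 8.31, at least 0.99 higher (adjusted p = 0.0315). Fosl2, an AP-1 subunit, read 5.92 and 6.35 against 7.45 and 7.62, the first of these near background, at least 0.05 higher (adjusted p = 0.0220). The 8 other JAK and STAT genes measured and the 7 other gp130 cytokines gave 0 limma calls for IL-6 at either point, with 1 cytokine at D1 and 1 JAK or STAT gene at D2 at an unadjusted p under 0.05. At an unadjusted p under 0.05 limma had 554 probe sets in all at D1 and 2808 at D2.

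From D1 to D2 the path moved widely, as did the array. In controls 15 of the 63 rose and 9 fell, where 43.2% of all named probe sets were called. In IL-6 cultures 17 rose and 9 fell, where 33.2% of all were called. Bcl2l1, which encodes the survival protein BCL-XL, rose by 6.36 ± 0.22 in controls and 6.84 ± 0.22 with IL-6 (limma adjusted p = 2.24e-08 and 1.27e-08). Cish, a feedback inhibitor of STAT5 signals, rose by 3.67 ± 0.20 and 3.57 ± 0.20. Pim1, a kinase induced by STAT factors, rose by 2.86 ± 0.16 and 2.73 ± 0.16. Of the AP-1 genes Jun rose by 3.28 ± 0.22 and 3.24 ± 0.22 and Jund by 2.46 ± 0.24 and 2.45 ± 0.24, in the same direction as Junb. Of the JAK genes Jak1 and Jak2 rose in both cultures, and Tyk2 fell by 1.63 ± 0.39 in controls and 1.20 ± 0.39 with IL-6. Myc fell by 1.52 ± 0.28 and 1.71 ± 0.28.

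Between genotypes 1 of the 63 was called at any stage, against 0.445%, 0.618% and 0.0460% of all named probe sets at stages I, II+III and IV. Lrg1, a secreted glycoprotein and STAT3 target, read 9.34 and 10.28 in DKO-II+III and was near background in DWT-II+III at 5.33 and 6.56, at least 2.38 higher on the log2 scale (limma adjusted p = 0.0270). It was also the only 1 of the 63 called between DWT-I (10.12 and 10.43) and DWT-II+III, where it fell (adjusted p = 0.0282, 0.245% of all called). The neutrophil list had median differences of 3.06 for DKO against DWT at II+III and -3.34 for DWT II+III against I. The part of these cells in the Lrg1 values was not tested. The median difference of the 63 in DKO against DWT was 0.16, 0.31 and 0.22 at the 3 stages, against 0.15, 0.01 and -0.02 over all genes.

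From II+III to IV 7 of the 63 fell in DWT and 0 rose, and in DKO 7 fell and 2 rose. Of all named probe sets 5.16% were called in DWT (3.57% lower) and 7.77% in DKO (3.66% lower). Nfil3, a STAT3 target in blood cells, fell by 3.25 ± 0.49 in DWT and 2.61 ± 0.49 in DKO (limma adjusted p = 0.0120 and 0.0112). Fos, the AP-1 partner of Jun proteins, fell by 2.99 ± 0.75 and 3.13 ± 0.75. Ptpn6 fell by 3.53 ± 0.85 in DWT. Myc fell by 4.33 ± 0.84 in DWT (adjusted p = 0.0206). In DKO Ddit3, a C/EBP relative of the stress response, rose by 2.90 ± 0.54 and Adam10, a protease that sheds receptors, by 1.59 ± 0.34. The median difference of the 63 was -0.31 in DWT and -0.62 in DKO, against 0.12 and 0.06 over all genes.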

How the data were processed

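Per the submitters' processing notes, the authors made the deposited log2 values in Affymetrix Expression Console with RMA, which corrects, normalizes and summarises probe intensities. Versions are not given in the sources used here, nor whether all 20 arrays were normalized together. The file spans 2.88 to 19.28, as a log2 scale does, and was used without further scaling.

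Of 28846 probe sets 19572 carried 1 gene symbol and were tested. The test was 2-sided in limma 3.58.1 (R 4.3.3), on group means: lmFit, then eBayes allowing for an intensity trend. The 8 cultured arrays formed 1 fit, with 4 residual and 6.41 prior df, and the 12 in vivo arrays another, with 6 and 4.52. Precision is limited by the number of arrays, and 2 arrays against 2 cannot reach significance in an exact permutation test. Where both arrays of 1 group were near background, a difference is written as at least the difference from that level. The fit was tested on simulated data with 100 changed genes. The cultured fit called 57% of changes of 1.5 on the log2 scale and 97% of changes of 3. The in vivo fit called 32% and 84%, so changes of these sizes can go uncalled.

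The 10 genes, the path lists and the marker lists were chosen with earlier results of these data known. Named besides the 10 were, for each path list, called genes, up to the 4 largest changes in a comparison, the 3 genes most like each of the 10, and Gata1, Klf1, S100a8, Csf1r and Diaph1. Marker and path genes named beyond that rule were chosen after their values were seen. Promoter windows came from RefSeq on GRCm38.p6. Alternatives were quantile normalization, centred arrays, no intensity trend, other sets of arrays in the fit, a filter on dim probe sets, sex as a covariate and each array left out. Lists of other marrow cell types were measured as well.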

Additional observations from a re-analysis of the deposited data

Results flagged for a closer look

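The Il6st response to IL-6 differed between the collection points. IL-6 against control was 3.01 at D2 and 0.58 at D1, and the test of the difference between these effects gave 2.43 ± 0.44 on the log2 scale (limma adjusted p = 0.0252, n = 2 arrays a group). The call held in 3 of the 8 fits that left out 1 array, and it ended after quantile normalization (adjusted p = 0.0638) and with all 20 arrays in 1 fit (adjusted p = 1). Both IL-6 arrays were above both control arrays at each point. It is shown here because the effects under the same contrast differed by a test of the difference itself. Monocyte and macrophage genes differed in the same way, 8 of 8 measured, and their part in the Il6st value was not tested.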

How the results depend on the processing

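Of 972 recomputed differences of single genes, 905 stayed on their side of the threshold (44 of these were uncalled values that changed sign), 34 newly passed, 33 no longer passed, and 0 called values changed sign. The limits are 2 arrays a group, 1 DKO-I array that stands apart, and signals near background for 103 of the 200 values. Above the higher level of the negative control probe sets were 46 values, against 97 above background. That level exceeded the positive-control median in some arrays, so whether it marks background is not known here. Genes called among the 10 moved as follows. With all 20 arrays in 1 fit the count was 2 and not 4 for D2 against D1 in controls, 0 and not 1 in IL-6 cultures, 0 and not 1 for IL-6 at D2 and for the difference of IL-6 effects, 1 and not 0 for II+III against I in DWT and in DKO, and 5 and not 3 for IV against II+III in DWT and in DKO. In that fit 6353 named probe sets were called for D2 against D1 in controls, and its other totals follow below. With dim probe sets left out the count was 5 for D2 against D1 in controls, 2 in IL-6 cultures, 5 for DWT IV against II+III and 4 for the DKO step. In these fits 6002, 5440, 1473 and 2052 probe sets were called in all, out of fewer tested. With only the arrays compared, D2 against D1 in IL-6 cultures gave 2 (6297 named probe sets called in all). DWT IV against II+III gave 5 (2788), the DKO step 4 (1923) and DWT II+III against I 2 (911). After quantile normalization the count was 0 for the difference of IL-6 effects (226 in all) and 4 for DKO IV against II+III (1456). Centring gave 5 for D2 against D1 in controls (7783) and 2 for DKO IV against II+III (1437). No intensity trend gave 5 for D2 against D1 in controls (8243) and 4 for DWT IV against II+III (1269). The cause was not tested.

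Leaving out each array gave 2 to 6 for D2 against D1 in controls, 1 in IL-6 cultures, 0 for IL-6 at D1, 1 to 2 at D2 and 0 to 1 for the difference of effects. It gave 0 to 5 for DKO against DWT at stage I, 0 at II+III and at IV, 0 to 3 for DKO II+III against I, 0 for DWT II+III against I, 0 to 1 for DKO IV against II+III and 0 to 2 for DWT IV against II+III. The difference of DKO effects between II+III and I gave 0 to 1, and that between IV and II+III gave 0. These fits take the spread of the lone remaining array from the other groups.

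Il6 from D1 to D2 in controls passed after quantile normalization (1.87, limma adjusted p = 0.0148), and Stat3 passed after centring (-1.63, adjusted p = 0.0414). Junb at stage IV passed with all 20 arrays, with the dim filter and with only the arrays compared, in both genotypes. Centring moved the median of all genes from 0.165 to 0.0381 for D2 against D1 in controls and from -0.109 to 0.002 for the DKO effect at II+III minus I.

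Counts over all named probe sets moved more. With all 20 arrays in 1 fit they were 269 and not 648 for IL-6 at D2, 0 and not 10 at D1, 54 and not 232 for the difference of effects, 4291 and not 6493 for D2 against D1 in IL-6 cultures, 502, 547 and 124 and not 87, 121 and 9 for DKO against DWT, 300 and not 48, 2465 and not 1010 for the DWT steps, and 269 and not 64, 2904 and not 1520 for the DKO steps. With only the arrays compared they were 388 for IL-6 at D2, 0, 37 and 0 for DKO against DWT, 911 and 2788 for the DWT steps and 0 for DKO II+III against I. Without an array they ranged from 0 to 6066 for DKO at stage I, 5 to 146 at II+III, 0 to 25 at IV, 0 to 443 for DWT IV against II+III and 157 to 630 for DKO IV against II+III.

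With sex as a covariate and the replicate block among DWT arrays, 2 and not 3 of the 10 genes were called for DKO IV against II+III. There 1138 named probe sets were called in all, and Il6ra had a limma adjusted p of 0.0543. For DKO against DWT, 24, 15 and 0 named probe sets were called in that fit. For the cultured and DKO arrays no paired analysis was possible because the labels do not tie them to individual mice. The DWT arrays, tied by labelled sex, were blocked in that fit only. For IL-6 at D1 the dim filter, the trend and the normalization left 2 to 12 probe sets called.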

Other observations

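Marker lists of 7 other cell types were measured beside the 10 genes. With IL-6 at D2, where 3.31% of all named probe sets were called, limma called none of the 5 B cell, 7 T and NK cell, 4 megakaryocyte and platelet, 5 mast cell and basophil, 4 eosinophil, 5 dendritic cell or 7 stromal and endothelial genes measured. Of these, 1 T and NK cell gene and 2 stromal and endothelial genes were at an unadjusted p under 0.05, as were 2808 named probe sets in all. From stage II+III to IV 1 of the 4 eosinophil genes and 1 of the 5 dendritic cell genes fell in DWT, and 1 of the 4 megakaryocyte genes rose in DKO. No other gene of the 7 lists was called in this step. Of all named probe sets 5.16% were called in DWT (3.57% lower) and 7.77% in DKO. The eosinophil list averaged 12.41 and 12.57 in DWT-I and 8.03 and 7.77 in DWT-IV. The mast cell and basophil list was highest in DWT-II+III, at 13.74 and 13.10, and lowest in D2-IL6, at 5.70 and 6.08, where all 5 of its genes were near background.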
